A study of Drosophila melanogaster with 3 samples.

Results

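Single-orientation promoter peaks are ChIP-seq peaks whose highest point, the summit, lies near annotated starts of protein-coding genes that all point the same way. They were taken from the deposited optimal peak list, in dm6 coordinates, of the transcription factor CG4328, a member of the LIM-homeodomain family. A peak was a member when its summit lay within 500 bp of protein-coding starts of 1 strand only, and peaks nearest to a gene whose symbol begins with RpL or RpS, the ribosomal protein genes, were left out. This gave 1216 of the 3688 optimal peaks, or 33.0% (95% Wilson interval 31.5 to 34.5%, which covers the number of peaks only). The same rule set aside 42 peaks at ribosomal protein genes. Another 672 peaks were divergent promoter peaks, with starts of both strands within reach, and 1728 summits were over 500 bp from any protein-coding start.

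The libraries came from whole Drosophila melanogaster embryos of pooled sex, 8 to 24 h old, of a line that stably carries CG4328 with GFP at its C-terminus. The precipitation used an antibody against GFP, after sonication to 200 to 800 bp. There was 1 group of 3 biological replicates, so no condition is compared with another, and control libraries were not used here. The promoter that drives the fusion is not given in the sources used here, and in whole embryos a weak peak in many cells and a strong peak in few cells cannot be told apart. Each replicate has a relaxed list of 30000 peaks, and the depth of every library is unknown.

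RNA polymerase II starts transcription at core promoters, and fly core promoters fall into broad types by the short sequences they carry. The DNA replication-related element (DRE) and the elements called Motif 1, Motif 6 and Motif 7 mark many broadly used genes, whereas a TATA box, an initiator or a downstream promoter element (DPE) fixes the start at many regulated genes. GAGA repeats upstream of starts are bound by GAGA factor, which keeps nucleosomes off promoters. Homeodomain proteins, the class to which CG4328 belongs, usually contact sequences with a TAATTA core.

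Sequences of the highest-ranked members that hold these elements are shown because they let the position of each element be compared with the summit. They are read on the strand of the gene from the release 6 reference genome (dm6), from 120 bases upstream to 30 downstream of the start where the element falls inside that stretch, and otherwise from 250 bases upstream. Capitals mark the named element on either strand. The summit of eEF1gamma, which encodes a translation elongation factor subunit, was 21 bp upstream of its start, just downstream of the DRE that begins at -41. Stretches that ran into an annotated exon upstream of the start are not shown.
eEF1gamma, DRE, chr3R:29220052-29220201, plus strand: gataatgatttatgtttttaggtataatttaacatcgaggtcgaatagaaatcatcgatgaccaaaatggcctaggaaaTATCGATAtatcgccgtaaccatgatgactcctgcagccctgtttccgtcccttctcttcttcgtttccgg
Vinc, DRE, chrX:2222538-2222817, minus strand: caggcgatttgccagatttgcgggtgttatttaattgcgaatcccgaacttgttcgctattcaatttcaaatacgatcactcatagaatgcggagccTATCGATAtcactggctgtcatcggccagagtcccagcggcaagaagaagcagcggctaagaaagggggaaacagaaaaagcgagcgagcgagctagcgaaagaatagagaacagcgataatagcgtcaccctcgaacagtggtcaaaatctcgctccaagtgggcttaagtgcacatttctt
CG1142, Motif 1, chr3R:7473752-7473901, minus strand: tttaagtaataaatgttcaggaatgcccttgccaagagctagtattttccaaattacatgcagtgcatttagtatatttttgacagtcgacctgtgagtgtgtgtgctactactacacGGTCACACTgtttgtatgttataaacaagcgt
CG6966, Motif 1, chr3R:15095602-15095751, minus strand: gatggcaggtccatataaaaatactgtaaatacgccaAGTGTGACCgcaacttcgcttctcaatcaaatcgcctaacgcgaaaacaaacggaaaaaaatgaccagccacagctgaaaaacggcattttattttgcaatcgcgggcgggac
Ugalt, Motif 7, chrX:2703823-2704102, minus strand: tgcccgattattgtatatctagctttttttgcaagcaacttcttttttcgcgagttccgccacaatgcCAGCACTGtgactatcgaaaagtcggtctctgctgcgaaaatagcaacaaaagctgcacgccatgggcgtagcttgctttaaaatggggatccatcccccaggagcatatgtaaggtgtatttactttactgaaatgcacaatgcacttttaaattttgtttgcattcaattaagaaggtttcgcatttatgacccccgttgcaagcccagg
Gapdh2, TATA box, chrX:15867895-15868174, plus strand: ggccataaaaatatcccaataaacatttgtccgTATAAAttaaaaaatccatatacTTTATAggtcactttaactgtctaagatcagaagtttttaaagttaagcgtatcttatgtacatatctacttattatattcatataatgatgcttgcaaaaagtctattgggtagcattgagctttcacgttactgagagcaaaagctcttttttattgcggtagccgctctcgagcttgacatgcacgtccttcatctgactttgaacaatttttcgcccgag
elav, GAGA, chrX:523197-523346, minus strand: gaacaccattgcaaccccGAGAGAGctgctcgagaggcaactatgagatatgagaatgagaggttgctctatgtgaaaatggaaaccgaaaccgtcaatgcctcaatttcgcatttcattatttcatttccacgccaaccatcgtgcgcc
ph-p, GAGA, chrX:2138342-2138621, minus strand: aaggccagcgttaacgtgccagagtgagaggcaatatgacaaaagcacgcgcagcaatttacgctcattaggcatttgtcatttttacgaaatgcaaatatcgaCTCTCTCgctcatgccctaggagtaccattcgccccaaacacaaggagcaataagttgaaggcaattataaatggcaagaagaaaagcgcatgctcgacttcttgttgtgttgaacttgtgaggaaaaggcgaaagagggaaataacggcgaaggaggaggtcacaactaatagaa
Hex-A, Homeodomain core, chrX:9585425-9585704, plus strand: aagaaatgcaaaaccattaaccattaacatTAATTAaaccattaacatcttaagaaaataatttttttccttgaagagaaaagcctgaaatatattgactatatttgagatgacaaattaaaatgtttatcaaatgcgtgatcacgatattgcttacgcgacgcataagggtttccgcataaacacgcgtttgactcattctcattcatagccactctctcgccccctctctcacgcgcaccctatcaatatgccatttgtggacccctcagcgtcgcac

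The elements and the summits did not coincide in most of these promoters. The summit at elav, a gene for a neuronal RNA-binding protein, lay 263 bp upstream of the start, whereas its GAGA match began at -102. The summit at ph-p, which encodes a Polycomb group protein, lay 422 bp downstream, on the other side of the start from its GAGA match at -146. The summit at Vinc, the gene for the adhesion protein vinculin, lay 95 bp downstream, with the DRE beginning at -153. At Gapdh2, a glycolytic enzyme gene, the summit at -170 lay close to TATA letters at -217 and -194, outside the stretch just upstream of a start where a TATA box works. At Hex-A, a hexokinase gene, TAATTA began at -220 and the summit was at -159.

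The highest member was at CG14100 (chr3L:19590401-19590821), the peak of rank 1 in the optimal list, which ranked 2, 3 and 1 in replicates 1, 2 and 3. Ugalt, which encodes a UDP-galactose transporter (chrX:2703675-2704083), had optimal rank 3 and replicate ranks 3, 2 and 4. All 3 replicates thus placed both peaks among their highest. Gapdh2 (chrX:15867747-15868204) had optimal rank 8 and replicate ranks 7, 5 and 16. The Hsp90 chaperone gene Hsp83 (chr3L:3192885-3193266) had optimal rank 23 and ranked 25, 12 and 223, so replicate 3 placed it far lower than the others did.

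All 20 highest members were supported in the 3 replicates, where support means an overlap of at least 1 bp with a peak among the 3688 highest of that replicate. Beside those above they were at mRpL41 (a mitochondrial ribosomal protein), Hex-A and Eno (glycolytic enzymes), elav, ph-p, Sox14 (a Sox-family transcription factor), Alg3 (an enzyme of N-glycosylation), RapGAP1 (a GTPase activator for Rap1), bbx, cu, px, Tina-1, brwl, Drat, CG1635 and CG7841. Their summits were upstream of the start in 19 of 20, and ph-p was the exception. The summit of elav was at -259, -269 and -240 in the 3 replicates, and that of ph-p at 442, 417 and 442, so each side was kept by every replicate. The ph-p peak lies between 2 starts of the gene, and a second ph-p member of rank 68 had its summit at -439 from the other start.

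Replicate support was close to that of the whole list. Of the members, 85.9% were supported in replicate 1, 85.5% in replicate 2 and 69.7% in replicate 3 (mean 80.4 ± 9.28%, SD, n = 3). Replicate 3 was the lowest. Divergent promoter peaks reached 86.3%, 79.5% and 76.6% (80.8 ± 4.97%, SD, n = 3). The mean difference was -0.43 ± 6.52 percentage points, smaller than its spread over replicates, and its sign differed between replicates (exact sign-flip permutation test over 3 replicates, two-sided, p = 0.75, adjusted p = 0.75 over 3 comparisons). With 3 replicates this test cannot go below 0.25, so no comparison here could pass 0.05. The 3 comparisons were replicate support, median rank and the occupancy of starts.

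All 3 replicates supported 683 members, or 56.2% (Wilson 53.4 to 58.9%), against 56.2% of all optimal peaks. Another 361 members had support in 2 replicates, 161 in 1, and 11 in none. The replicates differed in their whole relaxed lists too. The number of members absent altogether was 2 in replicate 1, 10 in replicate 2 and 200 in replicate 3. The last is 16.4% of members, beside 13.6% of all optimal peaks. The absent members of highest optimal rank were FoxK (a forkhead-family gene), Hmt4-20 (the histone H4 lysine 20 methyltransferase) and MFS18, of ranks 195, 261 and 333. They ranked 184, 209 and 267 in replicate 1 and 154, 352 and 321 in replicate 2, so replicate 3 missed peaks that the others placed high. Idua and viaf were missing from replicate 1, and CG31999, CG32115 and 1 of the 2 members at spi, which encodes an EGF ligand, from replicate 2.

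Support rose steeply with rank. When the optimal ranking was cut into 5 bands of equal size, support by all 3 replicates fell from 95.7% in the highest to 86.8%, 58.3%, 26.5% and 9.75% in the lowest. The optimal ranking comes from the 3 replicates pooled, so rank and support share their data. The lowest band still had 54.2%, 60.6% and 40.7% of its members in replicates 1, 2 and 3 taken singly. Members made up 282 of the 737 highest optimal peaks. Thus 23.2% of members were in that band, beside 21.1% of divergent peaks and 15.8% of peaks away from starts.

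**Figure D1:**
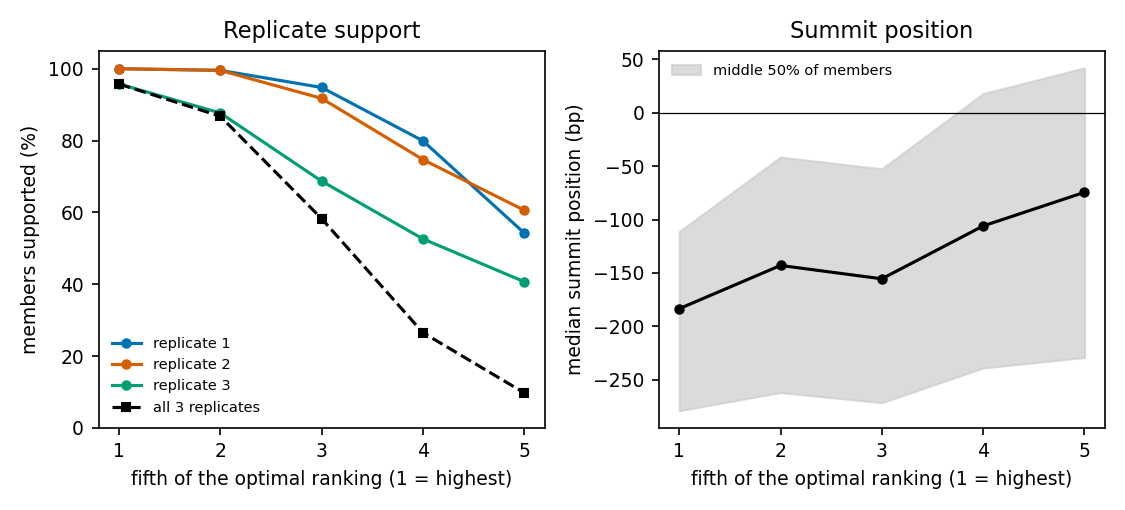
Left, the share of members supported in each replicate and in all 3 against the band of the optimal ranking (1 is the highest of 5). Right, the median summit position relative to the start in bp (line, negative is upstream) with the range of the middle members in grey. Support by all 3 replicates goes from 95.7% to 9.75%, and the median position from -183.5 bp to -74.5 bp.

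Starts with no start of the other strand within 500 bp were occupied at a lower share than the other starts, in every replicate. The former are called single-orientation and the latter divergent, on whichever side the opposite start lies. The annotation holds 14673 single-orientation starts, from 10545 genes, and 4425 divergent starts, from 3742 genes. An optimal summit lay within 500 bp of 10.2% of the former (9.73 to 10.7%) and 32.3% of the latter (31.0 to 33.7%). Using the 3688 highest peaks of each replicate, the single-orientation share was 10.4%, 10.6% and 9.17% (10.1 ± 0.77%, SD, n = 3), and the divergent share was 31.4%, 29.5% and 28.8% (29.9 ± 1.31%, SD, n = 3). The groups did not overlap and the divergent share was higher in 3 of 3 replicates. The difference of -19.9 ± 1.03 percentage points gave the smallest p this design allows (exact sign-flip permutation test, two-sided, p = 0.25, adjusted p = 0.75). By construction, a summit between a divergent pair counts both starts as occupied.

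Occupancy was even over the genome. The members divide as 232 on chromosome arm 2L, 255 on 2R, 244 on 3L, 266 on 3R, 211 on X and 8 on the small chromosome 4. The occupied share of single-orientation starts lay between 10.1% and 10.4% on the large arms. Chromosome 4 had 10 of 122 such starts occupied (8.20%, 4.51 to 14.4%), and its replicates gave 9.02%, 12.3% and 2.46%. That spread is wider than the distance to the other arms. One of its members is at ci, the Hedgehog pathway transcription factor.

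The summits sat upstream of the start. In the optimal list 939 members, or 77.2% (74.8 to 79.5%), had the summit upstream, 273 had it downstream and 4 at the start itself. The upstream share was 76.7% in replicate 1, 75.7% in replicate 2 and 80.9% in replicate 3 (77.8 ± 2.76%, SD, n = 3). The median position was -143 bp in the optimal list, and -154, -141.5 and -165 bp in the 3 replicates (-153.5 ± 11.8 bp, SD, n = 3). The replicates thus lay closer to each other than to the start. Of the 1005 members found in all 3 whole lists, 752 had all summits upstream, 153 had all downstream and 100 were mixed. The median range of the 3 summits of 1 member was 63 bp.

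**Figure D2:**
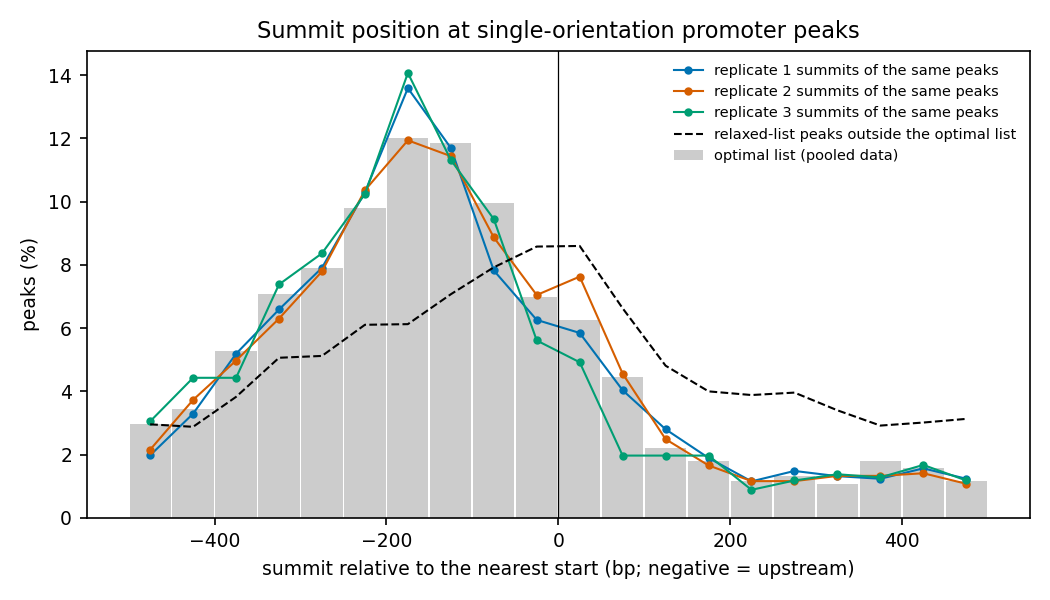
Share of peaks (%, y axis) by summit position relative to the nearest start in bp (x axis, bins of 50 bp, negative is upstream) for the members in the optimal list (bars), for the summits of the same peaks in each replicate (coloured lines) and for relaxed-list peaks that meet the rule but are not in the optimal list (dashed). The members' median is -143 bp and that of the relaxed-list peaks, which may include background, is -35 bp.

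Peaks near a start did not all lie as far upstream as the members. The 42 peaks at RpL and RpS genes that the rule left out had an upstream share of 64.3% (49.2 to 77.0%). Their median position was -12.5 bp, and 78.6% of them lay within 50 bp of the start against 13.2% of members. In the pooled relaxed list, 5175 of the 25262 peaks outside the optimal list met the same rule. Their upstream share was 55.7%, with a median of -35 bp. That list is labelled as holding peaks and background, so its entries outside the optimal list may be background and not a class of binding sites.

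The highest-ranked members lay farther upstream than the lowest-ranked. From the highest to the lowest band of the optimal ranking the upstream share was 87.6%, 79.9%, 80.0%, 70.7% and 66.5%, and the median position -183.5, -143, -155.5, -106 and -74.5 bp. The same was seen within each replicate when its members were divided at their median replicate rank. The upstream share of the higher-ranked and lower-ranked members was 83.4% and 70.0% in replicate 1, 80.3% and 71.1% in replicate 2, and 87.4% and 74.4% in replicate 3. The higher-ranked members had the larger upstream share in 3 of 3 replicates.

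Position varied with the structure of the gene. Members at genes with 1 annotated start numbered 455, with 83.5% upstream. Those at the first of several starts numbered 299 (70.9% upstream) and those at a later start 462 (75.1%). The rule itself can shape these shares, since an upstream summit close to an opposite start is classed as divergent. Where the nearest opposite start was over 5000 bp away, which the rule cannot affect, 532 members had an upstream share of 82.0% and a median of -181 bp. Summits lay outside all protein-coding genes in 516 members, in an intron in 430 and in an exon in 270. The exon summits, 236 of them in a 5′ UTR, had a median position of +36.5 bp and a median optimal rank of 2310, below the 1783.5 of all members.

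Several genes carried more than 1 member. The 1216 members belonged to 1048 genes and 1136 starts and formed 1134 separate regions. Of these genes 895 had 1 member, 153 had at least 2 and 14 at least 3. Rtnl1, which encodes the endoplasmic reticulum protein reticulon, had 4 members at 4 starts between 4997484 and 5005237 on chromosome 2L. Their summits were at -263, -244, -313 and -373 and their optimal ranks were 96, 479, 1208 and 2528. The first ranked 129, 90 and 80 in the replicates, and the last 2154, 5992 and 2098.

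The edge of the rule fell in the tail of the distribution but not at a gap in it. The members closest to it were at Msp300, a nesprin gene (summit at -500, rank 398), and sdt, an epithelial polarity gene (-499, rank 1635). The nearest peaks outside were at CG3376 (-507, rank 1738) and amn (507, rank 3255). In all, 111 members had the summit over 400 bp from the start, and 93 other peaks lay over 500 and up to 600 bp from one.

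The promoters of members were then searched for short sequences, on both strands, from 250 bp upstream to 50 bp downstream of each of the 1136 starts. The letters were TATCGATA for DRE, GGTCACACT for Motif 1, GTATNTTT for Motif 6 and CAGCNCTG for Motif 7. An E-box was CAGCTG, the TATA box was TATAAA, the initiator was TCAGT and DPE was CGGACG. The repeat searched as GAGA was GAGAGAG, the word for the early embryonic activator Zelda was CAGGTAG, and the homeodomain core was TAATTA. The longer homeodomain site TTAATTA contains the core, so matches to the former are also matches to the latter. As references for base composition the word AATATT and, as the next one, the word TTTAAA were searched. A match is a description of letters and not evidence of a site.

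Of the elements searched, GAGA differed from each comparison set by the largest ratio. It was in 19.0% of member promoters (16.8 to 21.4%), in 2.53% of the starts of divergent peaks, in 8.15% of single-orientation starts with no optimal summit and in 5.87% of the first starts of all 13945 protein-coding genes. DPE was in 11.2% of member promoters, against 4.77% at divergent peaks, 6.40% at single-orientation starts with no summit and 5.64% of all genes. It was counted anywhere in the window, with 85 sense and 46 antisense member promoters. For both elements the members' interval did not reach the other shares. Over the window the initiator was in 53.35% of members, 41.4% at divergent peaks, 54.5% at starts with no summit and 51.55% of all genes. The initiator and the TATA box were also counted by position, on the strand of the gene only. An initiator match had to begin from 5 bp upstream to 1 bp downstream of the start. It was in 12.2% of member promoters, 2.68% at divergent peaks, 9.67% at single-orientation starts with no summit and 7.37% of all genes. A TATA box at -35 to -25 was in 3.17% of members (2.30 to 4.36%), above the 1.04% at divergent peaks and below the 6.71% of single-orientation starts with no summit and the 6.27% of all genes.

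The elements of broadly used promoters were less frequent at members than at divergent peaks. DRE was in 5.99% of member promoters and 17.1% at divergent peaks, Motif 1 in 4.75% and 8.50%, Motif 6 in 12.9% and 18.0%, and Motif 7 in 8.72% and 15.1%. At single-orientation starts with no summit the shares were 4.95%, 3.02%, 12.3% and 4.83% in that order, and over all genes 9.36%, 6.05%, 14.9% and 7.31%. The members' intervals were above the starts with no summit for Motif 1 (3.66 to 6.15%) and Motif 7 (7.21 to 10.5%) and took them in for DRE and Motif 6. Against all genes the interval was below for DRE (4.75 to 7.52%) and took in the share for the others. Motif 1 had a preferred direction, with 40 sense and 15 antisense promoters, whereas GAGA had 104 sense and 132 antisense.

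The homeodomain core was not more frequent at members. It was in 15.1% of member promoters (13.1 to 17.3%), 17.8% of single-orientation starts with no summit, 20.4% of all genes and 28.6% at divergent peaks. The composition reference AATATT was in 27.5%, 25.9%, 30.6% and 42.3% of the same sets, and TTTAAA in 34.3%, 32.5%, 38.9% and 50.4%. The core and both references rose from members to all genes to divergent peaks. Members were below the starts with no summit for the core and above them for the references. The part of base composition in these shares was not tested. Within 100 bp of the summit, 14.97% of members held the core and 26.7% held AATATT. No comparison set was searched around summits. In member promoters with the core, its median distance from the summit was 88.5 bp, and 29.1% had a match within 50 bp. For AATATT these values were 88 bp and 33.0%. The E-box was in 20.4% of members and 17.7% of all genes. Zelda letters were in 1.06% of members and 1.64% of all genes. The median GC content of the window was 41.3% in members, 35.3% at divergent peaks, 40% at single-orientation starts with no summit and 38% over all genes.

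**Figure D3:**
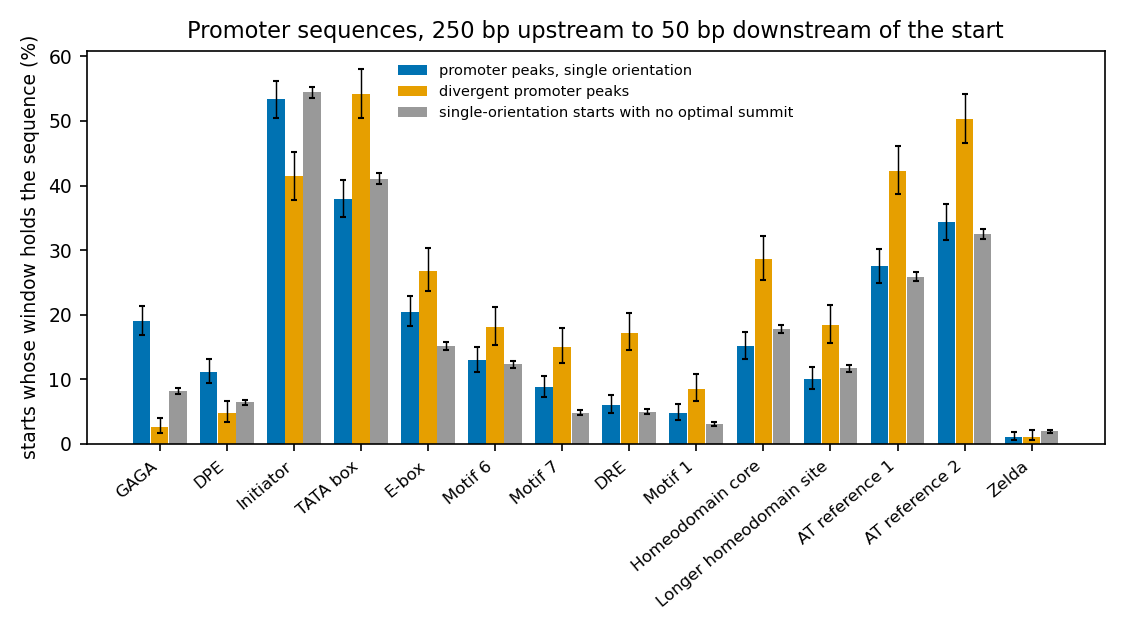
Share of starts (%, y axis, from 0) whose window from 250 bp upstream to 50 bp downstream holds each sequence (x axis), for members, divergent promoter peaks and single-orientation starts with no optimal summit. Error bars are 95% Wilson intervals over starts. GAGA stands at 19.0% in members against 2.53% and 8.15%, and DRE at 5.99% against 17.1% and 4.95%.

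The same question can be asked of every single-orientation start with the replicates kept apart. Of the 1319 starts with GAGA, 18.3%, 20.9% and 14.1% had a summit within 500 bp among the highest peaks of replicates 1, 2 and 3. Of the 13354 without it, 9.63%, 9.56% and 8.69% did. The means were 17.8 ± 3.44% and 9.29 ± 0.53% (SD, n = 3), and the difference of 8.47 ± 2.98 percentage points was positive in 3 of 3 replicates with no overlap (exact sign-flip permutation test, two-sided, p = 0.25, the smallest possible). With a reach of 250 bp in place of 500 bp the difference was 1.53 points and no longer positive in every replicate (exact permutation p = 0.50).

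Other elements gave differences of either direction. Starts with Motif 1 were occupied at 16.8 ± 2.77%, with Motif 7 at 16.3 ± 1.70%, with DPE at 14.4 ± 2.25% and with DRE at 13.9 ± 2.43% (SD, n = 3), each higher than starts without the element in 3 of 3 replicates. Those without ranged between 9.71% and 9.85% on average. For DRE the difference depended on the reach, at 4.06 points with 500 bp, 7.31 points with 250 bp and 2.11 points with 1000 bp. Among the 1844 highest peaks it was 0.81 points, and there and with 1000 bp it was not positive in every replicate (exact permutation p = 0.50 for each). Starts with the homeodomain core were occupied at 8.84 ± 0.70% against 10.3 ± 0.79% without it, lower in 3 of 3 replicates, and starts with TATA letters at 9.44 ± 0.54% against 10.5 ± 0.94%. Those with initiator letters were occupied at 9.78 ± 0.59% against 10.4 ± 1.00%, also lower in 3 of 3 replicates. With AATATT the share was 10.8 ± 0.56%, higher than the 9.80 ± 0.90% without it in 3 of 3 replicates. The p of each of these 14 comparisons was 0.25, the floor of the exact test, so none passed. These 14 were not part of the adjustment.

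**Figure D4:**
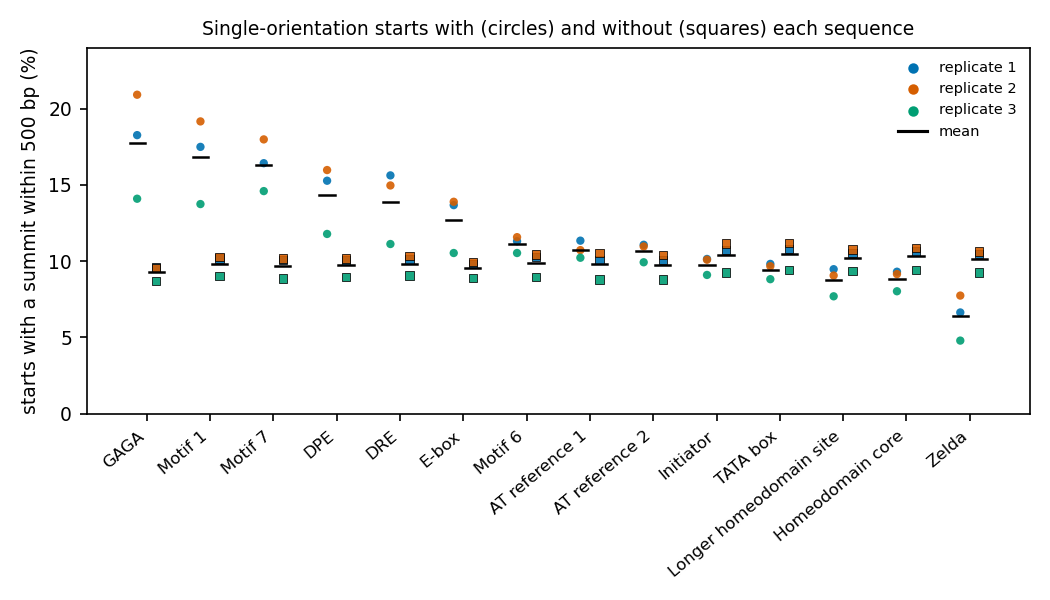
Share of single-orientation starts with a summit within 500 bp (%, y axis, from 0) among starts with each sequence (circles) and without it (squares), 1 point per replicate with the mean as a bar. With GAGA the 3 replicates sit at 14.1 to 20.9%, above the 8.69 to 9.63% without it, and with the homeodomain core they sit below.

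Promoter type went with summit position. The 216 member promoters with GAGA had a median summit at -205, -187 and -213 bp in the 3 replicates (-201.7 ± 13.3 bp, SD), whereas the 920 without it had -136, -123 and -151.5 bp (-136.8 ± 14.3 bp, SD). The replicate medians did not overlap, but the positions of single promoters did. In the optimal list the quartiles were -320.2 and -14.25 bp with GAGA and -238.2 and -14 bp without it. The upstream share was 75.9% with GAGA and 76.7% without it. GAGA matches themselves were densest from 100 to 75 bp upstream of the start, where members had 95.1 matches per 1000 starts, overlapping matches counted singly. Their median distance from the summit was 156.5 bp, and 8.80% of the promoters with GAGA had a match within 50 bp of the summit. Within 100 bp of the summits of all members GAGA was in 7.73%. Members with GAGA also ranked higher, with 31.9% in the highest band of the optimal list against 22.4% without it. Their median ranks, over members present in each list, were 1424, 1260 and 1334 in the replicates against 1789, 1790 and 1444, so the gap was smallest in replicate 3. Support did not follow in every replicate. Replicate 1 supported 86.1% of members with GAGA and 85.1% without it, and replicate 2 supported 92.1% and 83.15%. Replicate 3 went the other way, with 66.2% and 68.6%.

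The 68 member promoters with DRE had median summits at -49, -21.5 and -58 bp (-42.8 ± 19.0 bp, SD, n = 3), against -157.5, -144 and -166 bp for the 1068 without it. In the optimal list the quartiles were -108 and 59.25 bp with DRE, on both sides of the start, and -258.2 and -20 bp without it. The summit lay within 50 bp of the start in 23.5% with DRE and 12.6% without it. Replicate 3 supported 48.5% of the members with DRE, against 69.4% of those without DRE, while replicate 1 supported 83.8% and 85.4% and replicate 2 supported 86.8% and 84.7%. The gap was largest in replicate 3 and of the opposite sign in replicate 2. The 138 promoters with a positioned initiator had medians of -204, -194 and -196 bp. The 54 promoters with Motif 1 had 5.56% of members in the highest band and 38.9% supported by all 3 replicates. Taken by type, promoters with DRE, Motif 1, Motif 6 or Motif 7 (307) had a mean of replicate medians of -100.3 ± 12.7 bp, and those with a positioned TATA box or initiator (172) one of -187.3 ± 8.15 bp (SD, n = 3). The latter value follows the initiator, since the 36 promoters with a positioned TATA box had medians of -129.5, -104 and -134 bp, nearer the start. Neither kind of element was found in 679 promoters, or 59.8%.

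Base composition changed along the promoter. Around the starts of members GC content was lowest from 300 to 250 bp upstream, at 35.2%, and rose to 47.9% in the last 50 bp before the start. Around the starts of divergent peaks the lowest value was 28.9%, from 150 to 100 bp upstream. The part of base composition in the calling or the position of the peaks was not tested.

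The nearest genes were counted over 17 lists of gene functions. Of all protein-coding genes 7.52% were the nearest gene of a member, and of the genes that have a single-orientation start at all, 9.88%. The lists held 1014 genes, of which 81 had a member. Wilson intervals below cover the number of genes only, and no list was tested.

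Glycolysis and the TCA cycle had the highest share, with 9 of 31 genes (29.0%, 16.1 to 46.6%), or 40.9% of those with a single-orientation start. The 3 highest were Gapdh2, Hex-A and Eno, which ranked 7, 24 and 23 in replicate 1, 5, 18 and 46 in replicate 2, and 16, 83 and 85 in replicate 3. The others were Ald1, Ldh, Ogdh, Pepck1, Pgk and PyK, and 6 of the 9 had a member supported by all 3 replicates. Respiratory chain and ATP synthase genes, the next step of energy metabolism, had 1 of 86 (1.16%), ATPsynC, and 0 without replicate 1 or replicate 2. Only 51 of those 86 have a single-orientation start, and 8 had a divergent promoter peak.

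Signalling genes of the Notch, Wnt, Hedgehog, Dpp, EGF and JAK/STAT pathways had 18 of 68 (26.5%, 17.5 to 38.01%). The highest were E(spl)m3-HLH, a repressor gene activated by Notch, with replicate ranks 438, 192 and 272, then shn, a Dpp pathway transcription factor, with 334, 133 and 1441, and sgg, the GSK3 kinase of the Wnt pathway, with 278, 244 and 733. Replicate 3 placed shn far lower than the others did. The list also had the ligand spi, the receptors arr, ptc and wit, and the transcription factors aop, ci, pnt and Stat92E, and 10 of the 18 had a member supported by all 3 replicates. When replicate 1 was left out and support by both others was required, 10 genes had a member, and without replicate 2, 11 did.

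Heat shock proteins and chaperones had 8 of 34 (23.5%, 12.4 to 40%), led by Hsp83, mrj and Hsp27. Hsp27, a small heat shock protein gene, ranked 465, 557 and 994. Translation factors had 9 of 45 (20%, 10.9 to 33.8%), led by eIF6, eEF1gamma and eEF2. eIF6, which acts in ribosome biogenesis, ranked 67, 86 and 24, whereas eEF2, the translocation factor, ranked 696 and 1000 and was absent from replicate 3. Core promoter and insulator binding proteins had 5 of 26 (19.2%, 8.51 to 37.9%), namely BEAF-32, lola, psq, Trl and zf30C. Each of the 5 genes had a member supported by the 3 replicates. Counted by peak and not by gene, 56.2% of all optimal peaks had that support. Another lola member was absent from replicate 3, and another Trl member ranked 17259 there. With support by both other replicates required, the chaperones came to 5 without replicate 2 or replicate 3. The translation factors then came to 4 without replicate 1 and 5 without replicate 2. Trl encodes GAGA factor, and its highest member ranked 1514, 1553 and 554.

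Chromatin regulators had 7 of 63 (11.1%), with ph-p, the corepressor gene Sin3A and the demethylase gene Kdm5 highest. Splicing regulators had 5 of 43 (11.6%), with ps, B52 and Sxl highest. General transcription factors, RNA polymerase II and Mediator had 4 of 71 (5.63%), with Taf4, Polr2F and CycT highest, and cell cycle genes 4 of 56 (7.14%), with Dp, CycB3 and CycG highest. These shares had intervals that took in the background. So did the shares of Rab proteins (2 of 36, Rab5 and Rab11), mitochondrial ribosomal proteins (3 of 73, mRpL41, mRpL19 and mRpL4) and proteasome subunits (1 of 48, Rpn11). Of the genes with a single-orientation start, 25% of splicing regulators, 19.4% of chromatin regulators, 15% of mitochondrial ribosomal proteins and 13.8% of general transcription factors had a member. Cell cycle genes came to 10.5%, Rab proteins to 8% and proteasome subunits to 3.85%, beside a background of 9.88%. For general transcription factors, cell cycle genes and mitochondrial ribosomal proteins this was above the background, though the whole-list share was below 7.52%. Without replicate 1 or replicate 2 the chromatin regulators and the cell cycle genes came to 2 genes each, and the Rab proteins to 1. Without replicate 1 the splicing regulators came to 3, and without replicate 2 or replicate 3 the general transcription factors came to 1.

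Developmental homeodomain genes, the family of CG4328, had 3 of 55 (5.45%, 1.87 to 14.9%), and all 55 have a single-orientation start. The interval took in the background of either kind. They were tin, so and Dll, of optimal ranks 1196, 1431 and 1777. tin ranked 1399 and 680 and was absent from replicate 3, as was Dll, which ranked 2638 and 643. Neuronal genes had 2 of 32, elav and Syx1A, with an interval that took in the background too. Without replicate 1 or replicate 2 the homeodomain list came to 1 gene and the neuronal list to 1. Cuticle genes of the Cpr family had 0 of 70 (upper Wilson limit 5.20%) and chemoreceptors 0 of 179 (upper limit 2.10%).

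**Figure D5:**
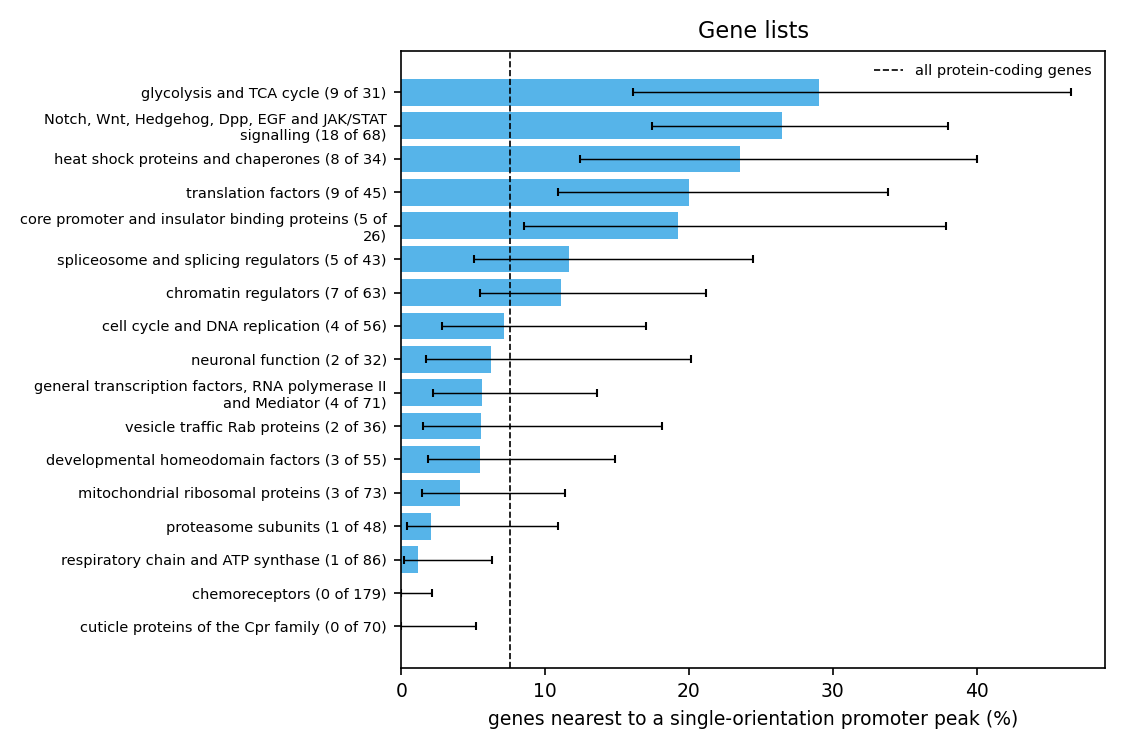
Share of the genes of each list (%, x axis, from 0) that are the nearest gene of a member, with 95% Wilson intervals and the number of genes with a member of the number in the list. The dashed line is the 7.52% of all protein-coding genes. Glycolysis and the TCA cycle is highest at 29.0%, and 2 lists are at 0.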

How the data were processed

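The study measured CG4328-GFP binding by ChIP-seq in 3 biological replicates of whole embryos. The deposited narrowPeak lists were used in dm6: 1 relaxed list per replicate, 1 from pooled data and the optimal list, which the authors made from the relaxed lists by the irreproducible discovery rate, per the text notes that accompany the lists. For the aligner, the peak caller and the threshold, nothing is given in the sources used here. The authors' signal value per peak has no stated scale and served for ranking inside each list. The authors' −log10 q value only described peaks, and the other deposited column used is the summit offset. Lists in dm3 are not used here.

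Summits were set against protein-coding starts of the BDGP 6.54 annotation (Ensembl release 115), whose chromosome lengths fit the release 6 genome. Signed distance follows the strand of the gene. Replicate values are those of the highest overlapping peak in that replicate, so neighbouring members can share 1 replicate peak. Shares have 95% Wilson intervals, which cover the number of peaks, starts or genes only, and the depth of every library is unknown. Differences were tested by exact sign flips over the 3 replicates. At its floor of 0.25 the p-value shows only that the sign was the same in all 3, not the size or spread of the difference. Python 3.11.15, numpy 2.4.6, pandas 2.3.3, scipy 1.17.1 and matplotlib 3.10.9 were used, and the overlap and motif searches were tested on simulated data.

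The members and the lists of genes and sequences were chosen with earlier results of these data known. In the gene lists 18 symbols matched through a synonym and 11 matched no gene. Genes are named when they are the nearest gene of the 20 highest members, the 3 highest of a list, the gene with most members, at the edge of the rule, among the 2 highest with an element off arm 2R, or absent from a replicate list. Other genes of a list are named without values, and lengthening a sequence to 250 bases and the occupancy by element were added after values were seen. Alternatives were the reach (250 or 1000 bp), the 1844 highest optimal peaks only, starts of all biotypes, ribosomal protein genes kept, leaving out each replicate, merging overlapping peaks, stricter overlap, whole lists and other search windows.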

Additional observations from a re-analysis of the deposited data

How the results depend on the processing

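The lower occupancy of single-orientation starts kept its direction under all 8 alternatives, from -20.3 to -12.7 percentage points. The number of members was 628 among the 1844 highest optimal peaks and 729 to 914 when both remaining replicates had to support a peak after 1 was left out. In the last setting the listed genes with a member were 47 to 64, the upstream share was 79.3 to 84.2% and the median position -178 to -156 bp. Among the 1844 highest peaks the upstream share was 83.8% and the median -171 bp. With a reach of 1000 bp the upstream share was 71.1%, and with 250 bp, which cannot hold farther summits, the median was -100 bp. The support difference from divergent peaks, smaller than its spread, turned to 1.87 points among the 1844 highest peaks, 0.41 with 1000 bp, 0.64 with whole relaxed lists and ranged from -3.68 to 2.84 when 1 replicate was left out. The difference in median rank was 99.5 ± 380.5 in the main setting (single-orientation minus divergent, SD, n = 3). Its sign differed between replicates (exact sign-flip permutation test, two-sided, p = 0.75, adjusted p = 0.75). It turned to -137.3 among the 1844 highest peaks and ranged from -85.0 to 295 when 1 replicate was left out. The cause of these turns was not tested. Occupancy by GAGA and by DRE, whose alternatives were chosen after seeing the data, kept the sign of its mean under all 9. The difference was no longer positive in every replicate for GAGA with 250 bp (1.53 points) and for DRE with 1000 bp (2.11) and among the 1844 highest peaks (0.81). Of 140 promoter shares 39 moved beyond their interval, most with another window, and of 136 list counts 36 moved by over 1.5 times, most of them counts under 10, but the 18 signalling genes came to 10 among the 1844 highest peaks and to 10 and 11 without replicates 1 and 2. Every tested difference was taken within a replicate, so no fit without that pairing was run. Unknown depth limits every absence of a peak to these lists.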
